A study of Mus musculus with 10 samples.

Results

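Mest and 9 other imprinted growth genes (Igf2, H19, Igf2r, Dlk1, Peg3, Plagl1, Grb10, Ndn and Nnat) were followed through 10 RNA-seq libraries of supporting cells from the murine utricle, 10 genes of the 48709 in each table. They were matched by gene symbol and were picked because Mest was higher in the libraries deposited under names for 5 days of TRULI, so that the comparison at 5 days is a description of them and carries no p-value. Imprinted genes are transcribed mainly from the copy inherited from 1 parent, and the choice is set by DNA methylation at CpG dinucleotides of control regions laid down in the germ line. Many of them act on fetal growth, often through the insulin-like growth factors, and many are silenced in tissues after birth. Mest, also known as Peg1, is expressed from the paternal copy, is abundant in embryonic mesoderm and encodes a predicted enzyme of the alpha/beta-hydrolase fold.

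The utricle is a balance organ of the inner ear, and its supporting cells surround the sensory hair cells. Utricles of Lfng-EGFP mice, in which a fluorescent reporter marks supporting cells, were explanted at postnatal day 21, and the Lfng-GFP+ cells were sorted by flow cytometry before RNA extraction. TRULI, an inhibitor of the Lats kinases that restrain the coactivator Yap, was given at 10 μM in 0.1% DMSO for 5 days, and control explants received 0.1% DMSO alone. The groups were DMSO at 5 days (n = 3), TRULI at 5 days (n = 3), and TRULI (n = 2) or DMSO (n = 2) followed by 5 days of withdrawal. All of the groups carried the same reporter and the same DMSO concentration during treatment, and the sort kept only cells that still made the reporter. Neither the labels nor the methods say which animals gave which library, so the p-values measure the spread between these libraries, part of which may be technical.

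Labels and deposited names gave different conditions for 4 of the 10 libraries. Those labelled TRULI at 5 days, replicates 1 and 2, carried deposited names for DMSO withdrawal and are called pair A. The libraries labelled DMSO withdrawal, replicates 1 and 2, carried deposited names for TRULI at 5 days and are called pair B. The label and the name agreed in condition for the other 6, which are the 3 DMSO libraries at 5 days, 1 TRULI library at 5 days and 2 TRULI withdrawal libraries. Libraries were grouped by label, and each value by deposited name stands beside it, since most results on these genes turned on that choice. The 5 Yap targets, a readout of Lats inhibition, summed to 136.6 and 83.2 CPM in pair A, below each DMSO library at 5 days (298.6 to 448 CPM), and to 1092 and 1255 CPM in pair B, above each of them, so these levels went against the labels of both pairs. The tables summed to between 2463872 and 6255149 counts. The mitochondrial ribosomal RNA mt-Rnr2 took 1.45% to 2.53% of the counts in pair A and the TRULI withdrawal libraries and 13.02% to 26.4% in the other 6. Lfng, the gene whose reporter was sorted, was at 21.6 to 104.5 CPM (counts per library total on the usual CPM scale, with TMM factors over all libraries) in those 4 libraries and at 294 to 544 CPM in the other 6. All 7 supporting-cell markers were detected in every library, with a summed level of 3262 to 13250 CPM.

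The promoter sequences of Mest are shown because CpG methylation is the mark on which imprinting rests, and those of Igf2 and Peg3 because they are the members whose windows held the Tead core motif, through which Yap acts. The sequences are the 250 bases before a RefSeq transcription start on GRCm38.p6, each printed 5′ to 3′ on the strand of its gene. Of the 3 Mest windows, all on the plus strand, those at chr6:30733256-30733505 and chr6:30737800-30738049 are printed, with each CpG in capitals, and the third, at chr6:30737803-30738052, overlaps the second in all but 3 bases.
Mest upstream window 1: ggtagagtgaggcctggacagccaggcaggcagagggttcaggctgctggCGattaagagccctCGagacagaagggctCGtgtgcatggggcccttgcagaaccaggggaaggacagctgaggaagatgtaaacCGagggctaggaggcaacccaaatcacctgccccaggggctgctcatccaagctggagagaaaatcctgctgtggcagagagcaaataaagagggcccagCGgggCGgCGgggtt
Mest upstream window 2: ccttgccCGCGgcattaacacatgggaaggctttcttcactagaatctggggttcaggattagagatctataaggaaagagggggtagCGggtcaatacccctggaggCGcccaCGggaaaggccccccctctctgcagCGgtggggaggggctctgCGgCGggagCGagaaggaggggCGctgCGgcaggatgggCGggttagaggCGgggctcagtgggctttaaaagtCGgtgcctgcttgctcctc
Window 1 held 7 CpG and window 2 held 14, against a median of 6 over 32851 windows of the same length from 27025 genes. The Igf2 window at chr7:142657497-142657746 and the Peg3 window at chr7:6730420-6730669, both on the minus strand, are printed with the motif in capitals, read as GGAATG or, on the other strand, CATTCC.
Igf2 upstream window: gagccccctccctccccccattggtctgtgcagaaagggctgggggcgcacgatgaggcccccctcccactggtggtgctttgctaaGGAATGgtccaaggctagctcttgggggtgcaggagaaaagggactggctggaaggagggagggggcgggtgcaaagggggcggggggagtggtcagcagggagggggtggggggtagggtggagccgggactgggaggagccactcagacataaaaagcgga
Peg3 upstream window: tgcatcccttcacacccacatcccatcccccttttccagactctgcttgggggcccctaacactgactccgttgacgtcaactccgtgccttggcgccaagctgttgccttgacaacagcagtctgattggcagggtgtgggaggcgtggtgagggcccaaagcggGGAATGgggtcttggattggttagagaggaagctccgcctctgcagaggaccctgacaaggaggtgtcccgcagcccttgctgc
The motif began 163 bases before the start in this Igf2 window and 84 bases before the start of Peg3. Of 15 windows found for 9 members, 4 held it, 3 of Igf2 and 1 of Peg3, against 12.6% of all windows, and none of the 3 Mest windows did. A match describes letters only, and no binding or methylation was measured in these libraries.

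Mest lies on chr6:30723547-30748465 (GRCm38, plus strand) and was the most abundant member, with a median of 191 FPKM (the count scaled by effective length and by the protein-coding total of the library) over the 10 libraries. That level was at the 98.2 percentile of protein-coding genes. In the 3 DMSO libraries at 5 days Mest was at 418, 305 and 334 CPM, from 1083, 950 and 1353 counts. The TRULI library at 5 days on which label and name agreed held 1632 CPM, from 6351 counts. Pair B held 1906 and 2828 CPM and pair A held 266 and 398 CPM. The TRULI withdrawal libraries held 266 and 333 CPM. The 3 libraries named TRULI at 5 days, which are the agreed library and pair B, thus lay above the other 7, of which the highest was at 418 CPM. On the per-length scale the 3 ran from 1056 to 1587 FPKM and the other 7 from 129 to 252 FPKM. In bulk RNA of sorted cells, a larger share of cells that express a gene and more RNA per cell cannot be told apart.

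**Figure D1:**
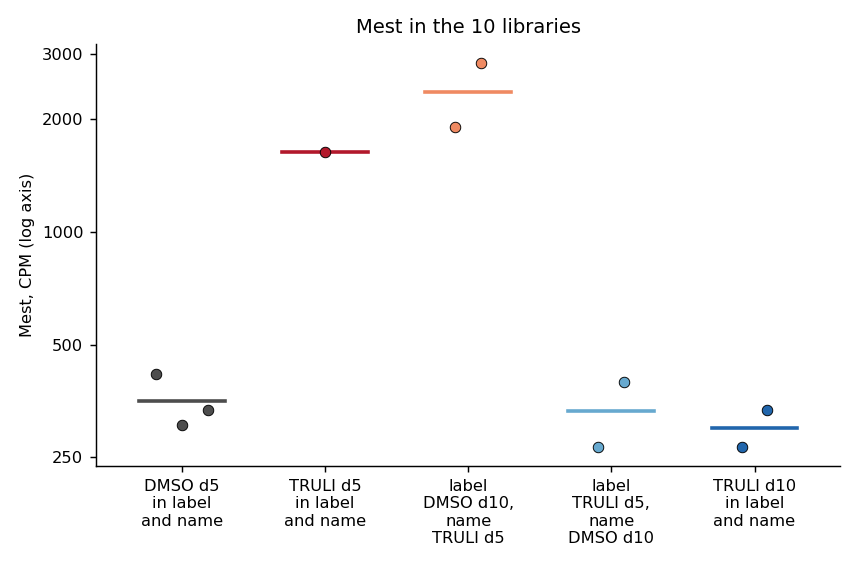
Mest level in each library, in CPM on a log axis. Points are libraries, bars are the means of the sets named below the axis, and the sets are split by the condition in the label and in the deposited name; the agreed TRULI library and pair B lie at 1632 to 2828 CPM and the other 7 libraries at 266 to 418 CPM.

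Grouped by label at 5 days, Mest averaged 765 ± 754 CPM (SD, n = 3) with TRULI and 353 ± 58.7 CPM (SD, n = 3) with DMSO. The log2 fold change was 1.13 (SE 0.65), and the groups overlapped because pair A lay within the range of the controls or just below it. The difference rested on 1 library, since it was 2.21 in the 6 libraries with agreed conditions and -0.15 without the agreed TRULI library. Grouped by deposited name, TRULI at 5 days averaged 2122 ± 626 CPM (SD, n = 3), which was 6.06-fold above DMSO, with a log2 fold change of 2.60 (SE 0.27). Each of the 3 named TRULI libraries was above each control there, which is the pattern by which the gene was picked. Leaving out any 1 library by deposited name gave log2 fold changes of 2.36 to 2.74.

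After withdrawal, the grouping by label set the TRULI libraries against pair B, and Mest was 8.22-fold lower (log2 fold change -3.04, SE 0.38). The controls of that comparison are libraries on which the choice of Mest rested, so it is given without a test. By deposited name the controls were pair A, and Mest averaged 300 ± 47.7 CPM (SD, n = 2) after TRULI and 332 ± 93.6 CPM (SD, n = 2) after DMSO. Here the log2 fold change was -0.16 (SE 0.38, edgeR's quasi-likelihood F test, Benjamini-Hochberg adjusted p = 0.9998), and the libraries overlapped. It was 0.17 without the control named replicate 2 and between -0.43 and -0.01 without any other library. In order of level by deposited name, TRULI at 5 days stood first, and DMSO at 5 days, DMSO withdrawal and TRULI withdrawal followed with ranges that overlapped one another. By label the order was DMSO withdrawal, TRULI at 5 days, DMSO at 5 days and TRULI withdrawal, and only DMSO withdrawal had a range apart from the rest.

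Copg2, a coat protein subunit gene of vesicle traffic, overlaps the 3′ end of Mest on the opposite strand, and the sources used here do not say whether counting used strand. Copg2 ranged from 52.6 to 189 CPM and had its highest value in a DMSO library at 5 days. Its log2 fold change at 5 days was -0.25 (SE 0.22, adjusted p = 0.641) by deposited name and -0.57 (SE 0.35, adjusted p = 0.474) by label. Its levels were at most 136.5 CPM in the 3 libraries named TRULI at 5 days.

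Of 8258 protein-coding genes with a mean of at least 10 CPM, the 5 whose log2 CPM followed Mest most closely over the 10 libraries were Ccn2, Ajuba, Apobec1, Plat and Mki67, with Pearson correlations of 0.946, 0.942, 0.935, 0.931 and 0.914. Ccn2 (connective tissue growth factor) and Ajuba are widely used Yap targets, Apobec1 is a cytidine deaminase that edits RNA, Plat is tissue plasminogen activator and Mki67 is a proliferation marker. Ccn2 was at 696 CPM in the agreed TRULI library, at 469 and 488 CPM in pair B and at 2.07 to 16.0 CPM in the other 7. Mki67 was at 26.2 CPM in the agreed library, at 121.5 and 57.0 CPM in pair B and at most at 1.61 CPM elsewhere. The points share their libraries, and the correlation describes the gap between the libraries named TRULI at 5 days and the other 7, so it carries no p. Within those 3 libraries the orders differed, since Ccn2 was highest in the agreed library, Mki67 in pair B replicate 1 and Mest in pair B replicate 2.

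**Figure D2:**
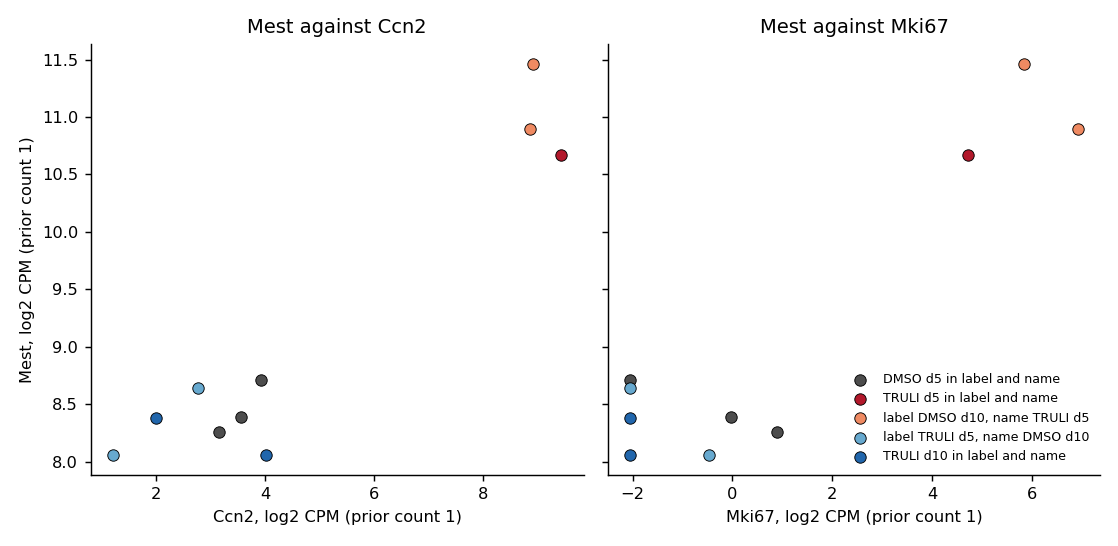
Mest (vertical axis) against Ccn2 (left) and Mki67 (right), each as log2 CPM with a prior count of 1. Points are the 10 libraries, coloured by condition in label and name; the 3 libraries named TRULI at 5 days lie apart at upper right in both panels, and the other 7 lie together at the lower left.

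The expression of the 5 Yap targets summed to 1092 to 1327 CPM in the 3 libraries named TRULI at 5 days and to 59.0 to 448 CPM in the other 7. The 6 proliferation genes summed to 144 to 465 CPM in those 3 and to 43.2 to 89.7 CPM in the others. Mest is known from mesenchyme, and the 8 fibroblast markers summed to 45.0 CPM in the agreed TRULI library and 107.6 and 44.1 CPM in pair B. Pair A, with Mest at 266 and 398 CPM, held sums of 52.3 and 40.7 CPM. The DMSO libraries at 5 days held 20.1 to 39.0 CPM. TRULI withdrawal replicate 1, with Mest at 266 CPM, had the highest fibroblast sum, 131.7 CPM, and replicate 2 had 36.5 CPM. None of the 8 was at 0 in the 3 libraries named TRULI at 5 days, and the same held in pair A and in TRULI withdrawal replicate 1. The DMSO libraries at 5 days had 2 to 3 of the 8 at 0, and TRULI withdrawal replicate 2 had 2. Col1a1 was at 0.227 to 2.39 CPM in the 3 libraries named TRULI at 5 days and at 0 to 0.988 CPM with DMSO at 5 days. Pdgfra was at 13.9 to 16.5 CPM there, against 14.1 to 28.4 CPM with DMSO at 5 days and 12.9 to 16.5 CPM in pair A. Twist1 was at 1.03 CPM in the agreed TRULI library and 0.239 to 0.682 CPM in pair B. It was at 0 to 0.741 CPM with DMSO at 5 days and 1.83 to 1.915 CPM in pair A. Postn, a matrix protein of fibroblasts, was at 8.48 CPM in the agreed TRULI library and 4.77 to 50.4 CPM in pair B, against 0.321 to 0.773 CPM with DMSO at 5 days, 1.83 to 15 CPM in pair A and 0 to 30.8 CPM after TRULI withdrawal. Col1a2 was at 12.3 CPM and 18.6 to 29.8 CPM in the former, against 3.09 to 11.3 CPM with DMSO at 5 days, 15.02 to 19.2 CPM in pair A and 25.2 to 65.9 CPM after TRULI withdrawal. Lum was at 0.514 CPM and 2.50 to 3.10 CPM, against 0 to 0.386 CPM with DMSO at 5 days and 0.209 to 1.10 CPM in the other 4. The 8 hair-cell markers summed to 573 CPM in the agreed TRULI library, 396 and 146 CPM in pair B and 118 to 183 CPM in the DMSO libraries at 5 days. They summed to 26.2 and 39.6 CPM in pair A and to 818 and 121 CPM in the TRULI withdrawal libraries. The summed level over the 10 libraries was at most 3.08 CPM for 4 endothelial markers, 0.907 to 18.6 CPM for 4 macrophage markers (with Ptprc at 0 in 9 libraries), 52.6 to 148.9 CPM for 4 Schwann-cell markers, 0.366 to 14.3 CPM for 4 melanocyte markers and 0.733 to 67.3 CPM for 4 neuronal markers. The part of these cell types in the level of Mest was not tested.

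At the ligand locus, Igf2 is the paternally expressed fetal growth factor and H19 is the maternally expressed noncoding RNA beside it (chr7:142650766-142666816 and chr7:142575529-142578143, both minus strand). Igf2 had 1, 1 and 0 counts in the DMSO libraries at 5 days and 0 in the agreed TRULI library. Pair B had 6 and 3 counts. Pair A had 42 and 38 counts, or 6.70 and 13.9 CPM, and the TRULI withdrawal libraries had 18 and 55 counts, or 3.27 and 11.5 CPM. Igf2 was thus above 3 CPM in the 4 libraries named for withdrawal (pair A and the TRULI withdrawal libraries), which also had the low mt-Rnr2 share, and at or below 1.43 CPM in the 6 named for 5 days, among them the 3 with the highest Mest. At 5 days it did not pass the filter on low counts under either grouping. The ratio of summed counts, TRULI over DMSO, was 30.3 by label (80 against 2 counts, 95% interval 8.11 to 254) and 3.51 by name (9 against 2 counts, 0.727 to 33.4), where the intervals cover counting error only. After withdrawal, the log2 fold change of Igf2 was 2.71 by label (SE 1.05, adjusted p = 0.165) and -0.49 by name (SE 0.94, adjusted p = 0.9998). By label it was 3.33 with an adjusted p of 0.0136 without TRULI withdrawal replicate 1, a fit with 1 TRULI library, in which pair B alone gives the spread. H19 never exceeded 3 counts, and its 10 values were at or under the 3-count floor of 0.479 to 1.16 CPM that applied to the libraries.

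Of the receptors and their regulators, Igf2r carries Igf2 to the lysosome and is expressed from the maternal copy (chr17:12682406-12769664, minus strand). Igf2r was at 79.6, 44.0 and 73.4 CPM in the DMSO libraries at 5 days, 87.6 CPM in the agreed TRULI library and 61.1 and 80.7 CPM in pair B. Pair A held 45.0 and 15.4 CPM and the TRULI withdrawal libraries held 19.4 and 19.4 CPM. At 5 days the log2 fold change was -0.41 by label (SE 0.57) and 0.23 by name (SE 0.27), and the groups overlapped under both. After withdrawal it was -1.93 by label (SE 0.41, adjusted p = 0.0571), with both TRULI libraries below both controls, and -0.65 by name (SE 0.68, adjusted p = 0.9998), with overlap. The value by label was under the threshold with DESeq2 (adjusted p = 0.00384) and over it in the fit of all 10 libraries (0.1805) and without either library of pair B (0.334 and 0.365). It was also under it without TRULI withdrawal replicate 1 (0.00125) or replicate 2 (0.00334), but pair B alone gives the spread there and the lone TRULI library is assumed to vary as pair B does. By label the log2 fold change was between -2.11 and -1.74 in those fits, and the value by name was 0.31 without the control named replicate 1.

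Airn, the paternally expressed antisense RNA that silences the paternal Igf2r in many tissues, overlaps Igf2r on the other strand. Airn was at 28.6 and 114 CPM in pair A and at 66.9 and 91.8 CPM in the TRULI withdrawal libraries. The DMSO libraries at 5 days held 14.3, 8.04 and 6.18 CPM, the agreed TRULI library 29.8 CPM and pair B 13.6 and 12.95 CPM. The 3 highest levels of Airn stood in the 3 libraries with the lowest Igf2r, and reads from their overlap cannot be told apart without strand.

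Grb10 encodes an adaptor that binds the insulin and IGF receptors and restrains growth, and was the second most abundant member, at a median of 26.1 FPKM (chr11:11930508-12038683, minus strand). It was at 41.0, 61.4 and 76.1 CPM in the DMSO libraries at 5 days, 70.9 CPM in the agreed TRULI library and 54.2 and 114 CPM in pair B. Pair A held 144 and 234 CPM, and the TRULI withdrawal libraries held 168 and 146 CPM. The 4 libraries named for withdrawal were above each of the 6 named for 5 days, as for Igf2. The log2 fold change at 5 days was 1.31 by label (SE 0.46) and 0.43 by name (SE 0.30), and was 0.26 in the 6 agreed libraries. After withdrawal it was 0.84 by label (SE 0.43, adjusted p = 0.267) and -0.28 by name (SE 0.42, adjusted p = 0.9998).

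Myod1, a muscle regulator among the markers of other cells, was at 34.8 to 90.9 CPM in pair A and 15.1 to 49.4 CPM in the TRULI withdrawal libraries, where Igf2 and Grb10 were also high, and at most at 0.386 CPM in the other 6. Its companions Myf5, Myog and Pax7 were at 0 in all 10 libraries and Des was at 0 in 8. The 5 muscle markers summed to 15.1 to 91.2 CPM in those 4 libraries and to 0 to 0.386 CPM in the rest. The part of the mt-Rnr2 share, of Lfng and of the muscle markers in the levels of Igf2, Igf2r and Grb10 was not tested.

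**Figure D3:**
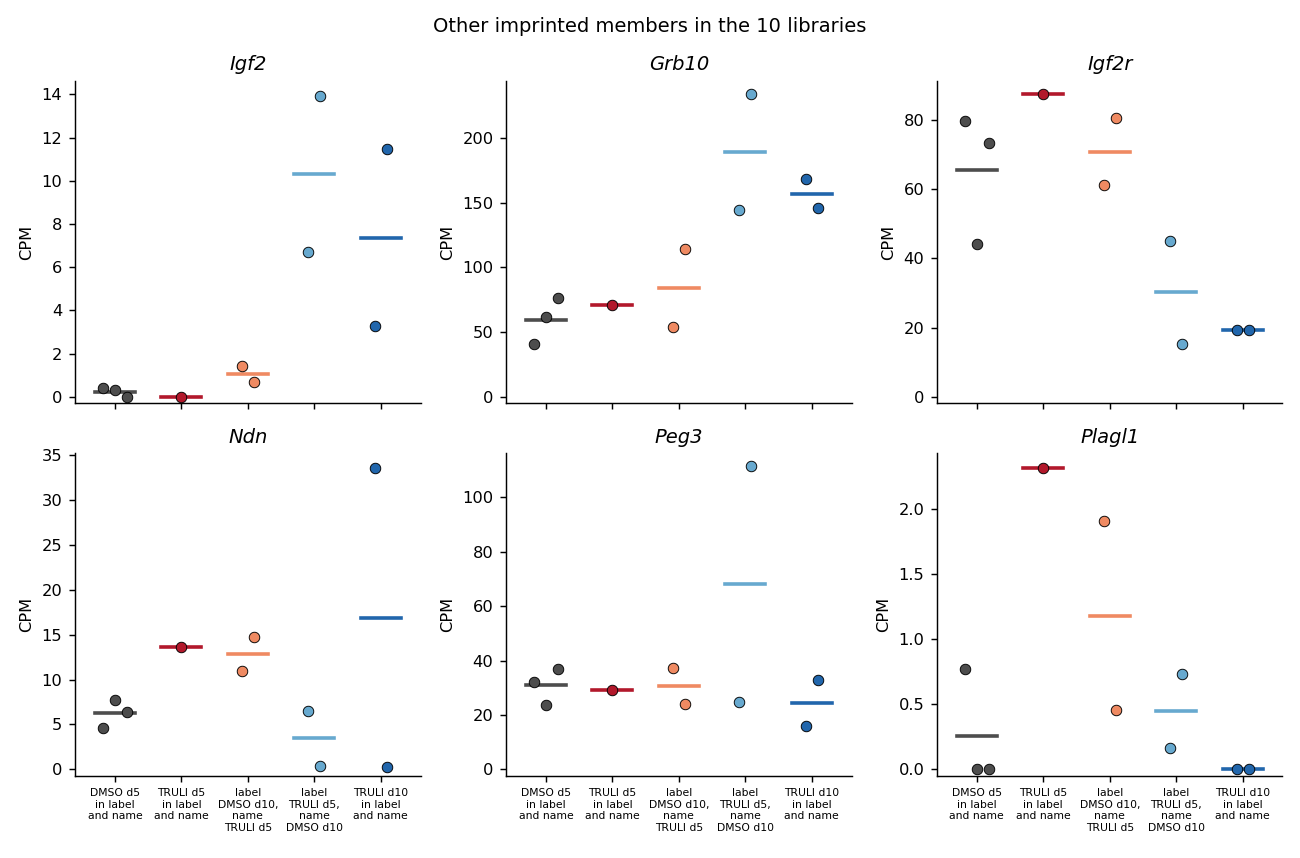
CPM of 6 further imprinted genes in each library, on linear axes that differ between panels. Points are libraries and bars are set means; Igf2 and Grb10 are highest in pair A and the TRULI withdrawal libraries, where Igf2r is at 15.4 to 45.0 CPM, and Ndn splits the 2 TRULI withdrawal libraries at 33.6 and 0.209 CPM.

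Dlk1, a paternally expressed membrane protein related to the Notch ligands, was counted in 4 libraries only (chr12:109452823-109463336, plus strand). Pair A held 6 and 6 counts and the TRULI withdrawal libraries 1 and 3, and the other 6 libraries held 0. By label at 5 days, 12 against 0 counts put it at least 3.03-fold higher with TRULI, computed against 3 counts over the control group. By name after withdrawal, 4 counts stood against 12, a ratio of 0.291 (95% counting interval 0.0684 to 0.960).

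Of the zinc-finger regulators, Peg3 (chr7:6703892-6730431, minus strand) was at 23.8 to 36.8 CPM in the DMSO libraries at 5 days, 29.3 CPM in the agreed TRULI library and 37.2 and 24.1 CPM in pair B. Pair A held 24.6 and 111 CPM and the TRULI withdrawal libraries 15.8 and 33.0 CPM. The level of 111 CPM stood in 1 library of a pair, and the groups overlapped in each comparison. The log2 fold changes of Peg3 were 0.80 (SE 0.58) by label and -0.01 (SE 0.28) by name at 5 days. After withdrawal they were -0.39 (SE 0.54, adjusted p = 0.689) by label and -1.49 (SE 0.76, adjusted p = 0.9998) by name, and the former was 0.02 without TRULI withdrawal replicate 1. Plagl1, a regulator of the cell cycle and of other imprinted genes (chr10:13060504-13131694, plus strand), had at most 9 counts. It had 9 in the agreed TRULI library, 8 and 2 in pair B, 1 and 2 in pair A, 2, 0 and 0 in the DMSO libraries at 5 days and 0 in both TRULI withdrawal libraries. By name at 5 days, 19 against 2 counts gave a ratio of 7.42 (95% counting interval 1.79 to 65.7), and by label 12 against 2 gave 4.54 (1.01 to 41.8). These intervals cover counting error only and leave out the spread between libraries, and the libraries overlapped under both groupings.

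Ndn encodes necdin, a paternally expressed protein of the MAGE family that restrains the division of neurons (chr7:62346569-62350262, plus strand). It was at 4.64, 7.72 and 6.42 CPM in the DMSO libraries at 5 days, 13.6 CPM in the agreed TRULI library and 11.0 and 14.8 CPM in pair B. Those 3 named TRULI libraries lay above the 3 controls, with a log2 fold change of 1.08 (SE 0.38) by deposited name and 0.14 (SE 0.92) by label, where the groups overlapped. TRULI withdrawal replicate 1 had 185 counts and replicate 2 had 1 count, or 33.6 and 0.209 CPM, and pair A had 41 and 1 counts. With such a split, the log2 fold change after withdrawal was 0.33 by label (SE 1.37, adjusted p = 0.905) and 2.22 by name (SE 1.66, adjusted p = 0.9998). Without TRULI withdrawal replicate 1 it turned to -5.84 by label (adjusted p = 5.96e-05) and to -3.94 by name (adjusted p = 0.9999). Both of those fits rest on 1 TRULI library with 1 count of Ndn, and the 2 controls alone give their spread. The 8 hair-cell markers summed to 818 CPM in TRULI withdrawal replicate 1 and to 121 CPM in replicate 2, and their part in the level of Ndn was not tested. Nnat, a small paternally expressed membrane protein of neurons and endocrine cells whose gene lies within Blcap on the opposite strand (chr2:157560078-157562522, plus strand), had 1 count in a DMSO library at 5 days, 3 in pair B replicate 2 and 0 in the other 8.

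The members did not share a single pattern over the libraries. At 5 days, 5 of the 10 passed the filter on low counts under each grouping, and none was separated between groups by label, where 8.54% of 11071 genes were separated upwards, 9.57% downwards and 18.1% in all. By deposited name Mest and Ndn were separated upwards, where 10.5% of 11529 genes were (10.8% were separated downwards and 21.3% in all), and nothing is read from that count because the comparison chose the genes. After withdrawal 6 of the 10 passed the filter. By label Igf2 and Grb10 were separated upwards, where 29.1% of 12242 genes were, and Mest and Igf2r downwards, where 28.6% were. Since 57.7% of all genes were separated in that comparison, nothing is read from the count. The separation of Mest was also set by its choice, which rested on pair B. By deposited name none of the 6 was separated, where 15.4% of 11568 genes were separated upwards, 13.3% downwards and 28.8% in all, and none was called by edgeR, which called 0.0% of all genes. At an unadjusted p under 0.05 edgeR gave 0 of these 6, and DESeq2 called 0 of the 9 it tested and gave 1 at an unadjusted p under 0.05. The median log2 fold change of the tested members at 5 days was 0.80 by label and 0.43 by name. Over all genes tested it was 0.05 and 0.03. Nothing is read from the medians at 5 days, because only 5 members enter and the comparison chose the genes. After withdrawal the median of the 6 tested members was -0.03 by label and -0.39 by name, against 0.02 and 0.01 over all genes tested.

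**Figure D4:**
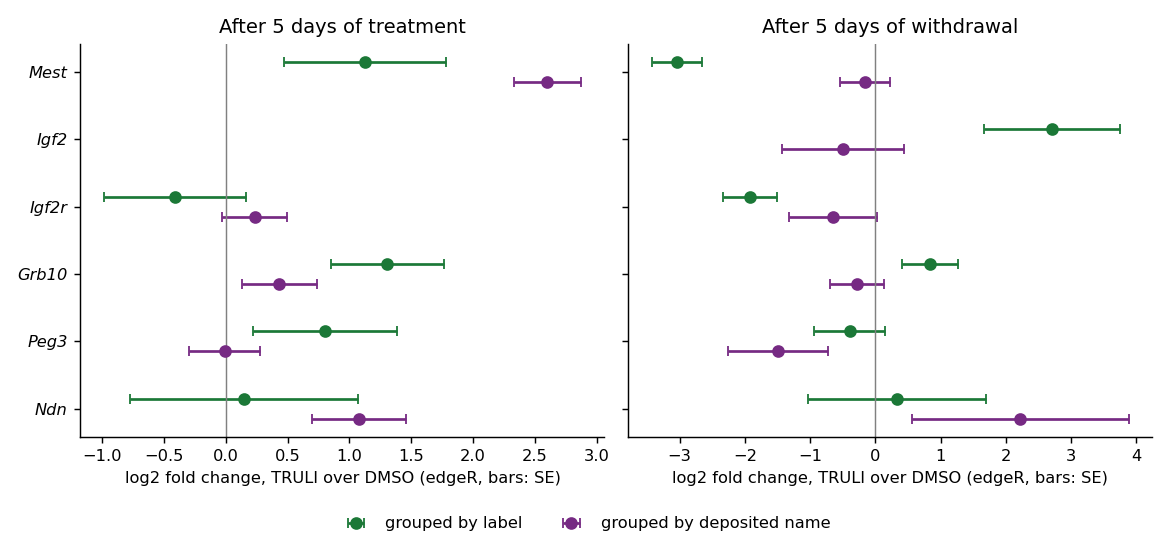
Log2 fold changes, TRULI over DMSO, of the members that passed the filter on low counts, after 5 days of treatment (left) and after withdrawal (right). Points are edgeR estimates, bars are 1 SE, and colours give the grouping by label or by deposited name; Mest is at 1.13 and 2.60 at 5 days and at -3.04 and -0.16 after withdrawal, and Igf2 passed the filter only after withdrawal.

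Of 55 other imprinted genes, 26 passed the filter at 5 days under each grouping. A gene was called where its adjusted p was under 0.05 and its log2 fold change was larger than 1 in either direction. Grouped by label none of the 26 was called, and edgeR called 0.00903% of all genes. At an unadjusted p under 0.05 there were 4 of the 26, and DESeq2 called 3 higher (Phlda2, Meg3 and Airn). By deposited name 3 of the 26 rose (Cdkn1c, Meg3 and Rian) and none fell, against 2.05% and 1.02% of all genes called higher and lower, or 3.07% together. The medians of the 26 were close to 0 under both groupings, at -0.003 and 0.028.

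Cdkn1c, a maternally expressed inhibitor of cyclin-dependent kinases, was at 11.98, 2.25 and 8.15 CPM in the DMSO libraries at 5 days, 90.5 CPM in the agreed TRULI library and 39.1 and 19.1 CPM in pair B. Its log2 fold change by name was 2.76 (SE 0.63, adjusted p = 0.0407). Rian, a maternally expressed noncoding RNA of the Dlk1 domain, was at 2.71, 0.964 and 0.988 CPM with DMSO and at 8.74, 11.2 and 7.95 CPM in the same 3 TRULI libraries, with a log2 fold change of 2.63 (SE 0.56, adjusted p = 0.0319). Meg3, the noncoding RNA next to Rian, was at 11.2, 2.89 and 6.42 CPM with DMSO. It was at 28.0, 19.1 and 30.7 CPM in those TRULI libraries, and its log2 fold change was 1.95 (SE 0.45, adjusted p = 0.0418). Pair A held Meg3 at 22.82 to 48.74 CPM, above each DMSO library at 5 days and overlapping the named TRULI libraries. By label Meg3 was thus also separated upwards at 5 days (log2 fold change 2.256, SE 0.577, adjusted p = 0.3235), without a call. Pair A held Cdkn1c at 3.989 to 4.397 CPM and Rian at 1.117 to 1.466 CPM, within the range of the DMSO libraries at 5 days. By name, Cdkn1c, Rian and Meg3 were called with the replicate number as a block, at adjusted p-values of 0.00306, 0.0127 and 0.00403 in that order. That fit raised the calls over all genes from 236 higher and 118 lower to 517 and 245. DESeq2 by name also called the 3, at adjusted p-values of 7.98e-05, 0.00644 and 0.00258, and it called 410 genes higher and 203 lower. They were called by edgeR with the DESeq2 size factors and without a filter as well. In the fit of all 10 libraries by name none of the 3 was called, at 0.0685, 0.175 and 0.275. None was called without DMSO replicate 2 or 3, or without the TRULI library named replicate 1 or 2, and the adjusted p-values then ran from 0.0697 to 0.167, and Meg3 was not called without named replicate 3 either (0.0805).

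By label after withdrawal, 28 of the 55 were tested, and Phlda2, Inpp5f and Airn rose while none fell, against 1.0% of all genes called higher and 1.06% called lower, or 2.07% together. Phlda2, which restrains growth of the placenta, was at 19.2 and 41.5 CPM in the TRULI withdrawal libraries and at 0.239 and 0.909 CPM in pair B (log2 fold change 5.60, SE 0.88, adjusted p = 0.0406). Inpp5f, a phosphoinositide phosphatase, had a log2 fold change of 2.07 (SE 0.37, adjusted p = 0.0445) and Airn one of 2.52 (SE 0.43, adjusted p = 0.0429). The calls of all 3 held with DESeq2, with its size factors, without a filter and with the replicate block. DESeq2, which called 863 genes higher and 596 lower, also called Atp10a and Blcap higher and Slc22a3 and Peg12 lower. The block also called Blcap higher and Slc22a3 lower. The calls of the 3 were lost in the fit of all 10 libraries (adjusted p = 0.176 for each). They were also lost without either library of pair B, which leaves 1 control, where the log2 fold changes were 1.8 to 6.77. By deposited name none of 26 was called, and 0 were under an unadjusted p of 0.05 by edgeR, with 2 of 40 by DESeq2, which called 0. Pair A held Phlda2 at 22.3 and 72.2 CPM and Inpp5f at 340 and 293 CPM, against 19.2 and 41.5 CPM and 294 and 307 CPM in the TRULI withdrawal libraries. The comparison by name at 5 days and the comparison by label after withdrawal share pair B.

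After withdrawal, Cdkn1c was at 9.07 and 14.2 CPM, above pair A, and Meg3 at 15.8 and 130 CPM, overlapping pair A, in the TRULI libraries. Blcap, the host gene of Nnat, was at 88.0 and 150 CPM there, 65.6 and 65.2 CPM in pair A, 37.5 and 44.3 CPM in pair B and 37.9 to 39.8 CPM in the DMSO libraries at 5 days. Its log2 fold change after withdrawal was 1.48 by label (SE 0.42, adjusted p = 0.0923) and 0.85 by name (SE 0.47, adjusted p = 0.9998).

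**Figure D5:**
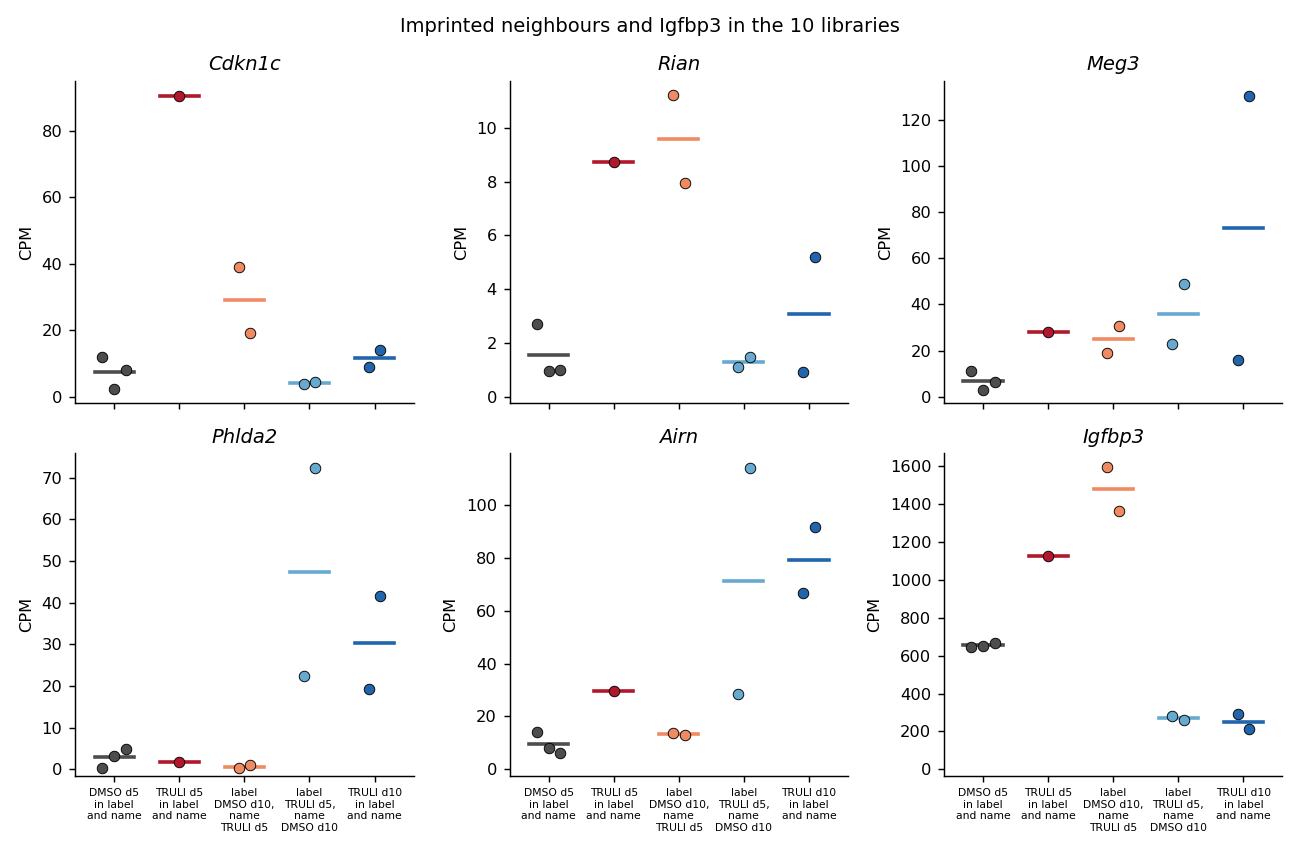
CPM of 5 imprinted genes outside the 10 members and of Igfbp3 in each library, on linear axes that differ between panels. Points are libraries and bars are set means; Cdkn1c, Rian and Igfbp3 are highest in the agreed TRULI library and pair B, and Phlda2 is highest in pair A and the TRULI withdrawal libraries, which also hold most of the high values of Airn.

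The wider insulin-like growth factor axis was read from 17 genes. They encode a ligand, receptors, substrates, proteins that bind the ligands, proteins that bind Igf2 mRNA and proteases that cut the binding proteins. At 5 days by label, 10 were tested and none was called, 2 were under an unadjusted p of 0.05 and DESeq2 called Igfbp2 higher. By deposited name, 1 of 11 rose and none fell, against 2.05% and 1.02% of all genes called higher and lower. The gene that rose was Igfbp3, which encodes a secreted protein that binds the ligands. Igfbp3 was at 647, 651 and 667 CPM with DMSO, at 1127 CPM in the agreed TRULI library and at 1599 and 1364 CPM in pair B, with a log2 fold change of 1.08 (SE 0.22, adjusted p = 0.0267). Without each library in turn the adjusted p ran from 0.0284 to 0.128, and the call was lost without any 1 DMSO library or the TRULI library named replicate 2. With the replicate block, Igfbp3 was called again (adjusted p = 0.00235) and Igfbp4 fell as well. DESeq2 by name and the fit by name without a filter also called Igfbp3 higher and Igfbp4 lower. In the fit of all 10 libraries by name Igfbp3 was not called (0.0533). After withdrawal by label, Igfbp3 was the only call of edgeR among 12, at a log2 fold change of -2.62 (SE 0.36, adjusted p = 0.0312). Over all genes 1.0% were called higher and 1.06% lower. DESeq2 called Igfbp3 lower as well and Igf1r, Igfbp2 and Igfbp4 higher, of 16 tested. The call of Igfbp3 was lost in the fit of all 10 libraries (adjusted p = 0.176). It was also lost without either library of pair B, which leaves 1 control, at log2 fold changes of -2.50 and -2.76. By name none of 10 was called, with 0 under an unadjusted p of 0.05, and DESeq2 called 0 of 15 with 1 under an unadjusted p of 0.05. The TRULI withdrawal libraries held Igfbp3 at 290 and 212 CPM and pair A at 282 and 259 CPM.

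Igfbp2, another binding protein, is named after its values were seen, as are Igf1r, Igf1 and Igfbp1, and it divided the libraries as Igf2 and Grb10 did. It was at 1130 and 2179 CPM in pair A and 823 and 2305 CPM in the TRULI withdrawal libraries, and at 102 to 298 CPM in the other 6. Igf1r, the main signalling receptor, was at 307 to 365 CPM in those 4 libraries and at 88.4 to 179 CPM in the other 6. With every library of a comparison, the filter and no block, edgeR called neither in any of the 4 comparisons. The adjusted p of Igfbp2 after withdrawal by label was 0.0553 (log2 fold change 2.71, SE 0.57). In that comparison both were called higher by DESeq2, with the replicate block and without the filter. Igfbp2 was also called higher at 5 days by label without the filter. Igf1, the postnatal ligand, was at 3.66 to 24.5 CPM over the 10 libraries. Igfbp1 was at 0 in all 10.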

How the data were processed

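RNA was sequenced from 10 libraries of sorted utricular supporting cells, and the reads had been aligned by the authors to the GRCm38 (mm10) genome with STAR. The authors deposited 1 table of expected counts per gene for each library, with effective lengths and no normalization, and the counting program and its use of strand are not given in the sources used here. For library preparation the labels give an Illumina kit with poly(A) selection, and the methods give a QIAseq kit for single-cell RNA. The members, the gene lists and the tests were chosen with earlier results of these data known.

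Expected counts were rounded and filtered by filterByExpr, scaled by TMM and tested with the quasi-likelihood F test of edgeR 4.0.16 in R 4.3.3, with the 2 groups of a comparison in each fit. A gene was called where the adjusted p (Benjamini-Hochberg, over genes of every biotype) was under 0.05 and the log2 fold change was larger than 1 in either direction. The SE is the size of the log2 fold change over the square root of F. CPM used TMM factors over all 10 libraries, and FPKM used effective lengths and protein-coding totals. For Igf2, H19, Dlk1, Plagl1 and Nnat, the members with the lowest counts, summed counts were compared with an exact interval (95%) where both groups had counts. Where a group held 0, the other was compared against a floor of 3 counts over the group. No ratio was given where neither group exceeded that floor. Annotation came from GENCODE M21, which names 48349 of the 48709 genes, and the promoter windows from RefSeq.

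Named genes were the 10 members, their overlapping or adjoining imprinted genes, every called gene of the imprinted and IGF lists, and the 5 genes most like Mest. By deposited name at 5 days, deviations from the group means correlated at 0.193 to 0.368 between same-numbered libraries and at -0.267 to -0.015 between differently numbered ones. Deviations cancel within a group, so these ranges are not independent. No source says whether a shared number marks a pair. Alternatives were the deposited names, DESeq2 1.42.0 and its size factors, no filter, protein-coding genes, all 10 libraries in one fit, the 6 agreed libraries, the replicate block and each library left out. By deposited name, the fits without a filter, of all 10 libraries and with DESeq2's size factors were added after the data were seen. Scripts were tested on simulated counts.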

Additional observations from a re-analysis of the deposited data

How the results depend on the processing

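By label at 5 days, 1 gene of all those tested was called higher and 0 lower, and 1515 were under an unadjusted p of 0.05. The calls were 236 and 118 by deposited name, 232 and 63 with DESeq2, 546 and 100 without a filter, 5 and 0 with the 6 agreed libraries, 1 and 1 with all 10 libraries in one fit and 0 and 0 with the replicate block. Leaving out 1 library gave 0 to 1215 higher and 0 to 923 lower, the highest without the agreed TRULI library. By deposited name at 5 days, the 236 and 118 became 517 and 245 with the replicate block, 410 and 203 with DESeq2, 651 and 251 without a filter, and 67 and 42 with all 10 libraries in one fit. Leaving out 1 library gave 39 to 254 higher and 15 to 132 lower. The lowest counts, 39 and 15, were without DMSO replicate 2, and the counts were 103 and 57 without DMSO replicate 3 and 105 and 42 without TRULI named replicate 2, with 57 lower without TRULI named replicate 1.

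After withdrawal by label, the calls were 123 higher and 130 lower. They were 0 and 0 by deposited name and with all 10 libraries in one fit, 863 and 596 with DESeq2, 1050 and 701 without a filter and 725 and 544 with the replicate block. Leaving out 1 library, which leaves 1 group with a single library assumed to vary as the other group does, gave 0 to 1501 higher and 8 to 1653 lower (0 and 8 or 6 and 12 without a library of pair B, 1501 and 1653 or 1308 and 1081 without a TRULI library). By deposited name the 0 and 0 calls, with 532 genes under an unadjusted p of 0.05, became 45 and 9 with DESeq2, 147 and 50 without a filter, and 0 to 4 higher without 1 library, the 4 without TRULI replicate 1. The 6 agreed libraries hold no withdrawal control and gave no value there.

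The log2 fold change of Mest moved from 1.13 to 2.60 at 5 days and from -3.04 to -0.16 after withdrawal when libraries were grouped by deposited name, and the latter ran from -0.43 to 0.17 without 1 library. After withdrawal, Igf2 turned from 2.71 to -0.49 and Grb10 from 0.84 to -0.28 by deposited name, and Ndn from 0.33 to -1.28 with the replicate block. Without 1 library by label, Ndn ran from -5.84 to 1.29 and Peg3 from -1.05 to 0.021, and by name Igf2 ran from -1.66 to 0.15 (also 0.13), Igf2r from -1.22 to 0.31, Grb10 from -0.60 to 0.12 and Ndn from -3.94 to 5.40. The sign changed without TRULI withdrawal replicate 1 for Ndn, Peg3 and Igf2, without DMSO replicate 2 by name for Igf2 and Grb10, and without DMSO replicate 1 by name for Igf2r. The causes were not tested.

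The numbers in the labels did not pair the libraries at 5 days, with correlations of -0.186 to 0.065 between same-numbered libraries, and after withdrawal 2 pairs with a correlation of 0.203 share only a number. With that block, the adjusted p of Igf2r after withdrawal was 0.0206. At the depth of these libraries, H19, Dlk1, Plagl1 and Nnat had at most 9 counts, which leaves wide counting intervals on their ratios.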

Other observations

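Slc22a3 and Zrsr1, imprinted genes of the wider list that were chosen after their values were seen, also differed between sets of libraries. Slc22a3, an organic cation transporter gene near Igf2r, was at 381 to 422 CPM in the agreed TRULI library and pair B, at 210 to 258 CPM in the DMSO libraries at 5 days and at 62.4 to 163 CPM in pair A and the TRULI withdrawal libraries. Its log2 fold change by deposited name at 5 days was 0.86 (SE 0.20, adjusted p = 0.0457), under the fold a call required, and after withdrawal by label it was -1.88 (SE 0.49, adjusted p = 0.0789). Zrsr1, an imprinted gene related to a splicing factor, was at 2.71 to 9.16 CPM in pair A and the TRULI withdrawal libraries and at 12.3 to 39.0 CPM in the other 6.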
